A study of Homo sapiens with 12 samples.

Results

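The genes described here are NCL, NPM1, CNBP, YY1, TOP1, PARP1, TARDBP and DNMT1, 8 protein-coding genes whose products are known to bind G-quadruplexes, stacked structures that guanine-rich DNA or RNA can fold into. The measurement is not of these proteins but of G-quadruplexes in the chromatin of their own genes. Each gene was given the window around a transcription start site (TSS) whose centre lay nearest its RefSeq 5′ end on the same strand, within 1 kb, and every deposited peak from 5 kb upstream to 5 kb downstream of the gene. A window was found for 6 of the 8 genes, among 58381 windows in all; NCL and DNMT1 had none within 1 kb and are described by their peaks.

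The cells were HEK293, a widely used line derived from human embryonic kidney, and the pull-down used BG4, an engineered antibody against the folded structure, on their chromatin (BG4 ChIP-seq). The labels give no treatment other than formaldehyde fixation, and the chromatin was sonicated before the antibody step and tagmented after it. The 3 groups, BioRep3, BioRep2 and BioRep1, are biological replicates of this single condition, each with 3 technical ChIP libraries, numbered 1 to 3. The 3 inputs, made without the antibody step, were not analysed here, so no level is set against a library without BG4. The windows held 372030 to 846114 reads per library, the fewest in BioRep1 library 2. The peak lists held 13049 peaks for BioRep3, 11665 for BioRep2 and 7931 for BioRep1. The files hold DNA reads, so the identity of the cells was not checked against expressed markers.

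The proteins fall into 3 groups by role. NCL (nucleolin) and NPM1 (nucleophosmin) are abundant nucleolar proteins of ribosome production, and nucleolin is known as a binder of the MYC promoter quadruplex. CNBP is a zinc-knuckle nucleic acid chaperone, YY1 a zinc finger transcription factor linked to chromatin looping, and TARDBP encodes TDP-43, an RNA-binding protein of splicing. TOP1 (DNA topoisomerase I, which relaxes supercoils), PARP1 (which builds poly(ADP-ribose) at DNA breaks) and DNMT1 (which maintains CpG methylation after replication) are enzymes that act on DNA, and quadruplex binding is known for each of them in vitro.

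BG4 peaks lay at the promoters of 7 of the 8 genes in all 3 lists. The exception, TARDBP, had peaks in BioRep3 and BioRep2 alone. Here a promoter is the RefSeq interval from 250 bases before to 50 bases after an annotated start. Of 15843 protein-coding genes with such an interval, 28.4% had a peak touching it in all 3 lists. The genes were chosen with earlier results of these data known, so this difference carries no test.

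The bases covered by a peak in every list are shown first, because they carry the signal and their strand bias differs between genes. Sequences are RefSeq GRCh38.p14, 5′ to 3′ on the strand of the gene, limited to the part upstream of the start that the promoter interval holds. Capitals mark runs of 3 or more G or of 3 or more C; a C run is a G run on the opposite strand. NPM1 and TOP1 had G runs mostly on the gene strand, NCL and DNMT1 mostly on the opposite strand. The part of the YY1 stretch shown further below had 5 G runs and 1 C run. The PARP1 stretch, not printed, had 9 G runs and 10 C runs. The NPM1 stretch is chr5:171387599-171387843 (plus strand), TOP1 is chr20:41028572-41028778 (plus), NCL is chr2:231464493-231464734 (minus), and DNMT1 is chr19:10194957-10195083 (minus).
NPM1: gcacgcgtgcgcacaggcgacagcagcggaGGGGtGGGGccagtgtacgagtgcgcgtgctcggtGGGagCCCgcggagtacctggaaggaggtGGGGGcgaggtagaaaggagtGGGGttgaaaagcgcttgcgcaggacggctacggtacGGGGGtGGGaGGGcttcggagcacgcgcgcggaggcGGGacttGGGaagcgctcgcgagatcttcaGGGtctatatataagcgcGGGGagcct
TOP1: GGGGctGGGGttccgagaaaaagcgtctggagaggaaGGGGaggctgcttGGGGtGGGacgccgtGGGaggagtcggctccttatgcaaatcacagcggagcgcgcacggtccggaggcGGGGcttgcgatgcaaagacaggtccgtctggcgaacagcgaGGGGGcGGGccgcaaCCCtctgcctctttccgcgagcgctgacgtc
NCL: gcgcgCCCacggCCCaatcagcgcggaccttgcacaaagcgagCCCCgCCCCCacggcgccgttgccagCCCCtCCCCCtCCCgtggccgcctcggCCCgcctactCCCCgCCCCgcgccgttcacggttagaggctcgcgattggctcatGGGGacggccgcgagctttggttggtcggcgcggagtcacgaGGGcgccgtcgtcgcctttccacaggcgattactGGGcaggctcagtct
DNMT1: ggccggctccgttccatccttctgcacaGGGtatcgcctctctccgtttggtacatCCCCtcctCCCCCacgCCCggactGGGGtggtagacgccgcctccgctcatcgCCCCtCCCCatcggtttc

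The next set shows the shortest stretch, CNBP, the end of the YY1 stretch that the promoter interval covers, and TARDBP, where the stretch is shared by the BioRep3 and BioRep2 peaks only. CNBP is chr3:129183938-129183970 (minus strand), YY1 is chr14:100238894-100238981 (plus) and TARDBP is chr1:11012404-11012482 (plus). The 79 bases shown, of the 152 bp TARDBP stretch, hold a single G run and no C run. Their GC content was 49.4%, against 66.9 to 78.8% for the same part of the stretches of the other genes.
CNBP: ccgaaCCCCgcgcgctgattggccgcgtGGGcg
YY1: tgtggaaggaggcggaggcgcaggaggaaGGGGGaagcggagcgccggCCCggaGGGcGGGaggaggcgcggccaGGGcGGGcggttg
TARDBP: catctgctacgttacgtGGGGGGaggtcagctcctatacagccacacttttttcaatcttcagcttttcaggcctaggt

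Few of these promoters held a canonical quadruplex motif. The motif searched was 4 or more runs of GGG or longer, each joined to the next by 1 to 7 bases of any kind (N), on either strand. Of the 8 genes, YY1 had it in a promoter, against 36.3% of protein-coding genes. The YY1 motif lies at chr14:100239090-100239130, at positions -54 to -14 relative to the start (negative upstream), with its G runs on the strand opposite to the gene.
YY1 motif: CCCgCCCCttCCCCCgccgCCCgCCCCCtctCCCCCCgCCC

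No peak of any list covered the YY1 motif. With loops of up to 12 bases the motif was also found in PARP1 and TOP1, so 3 of 8 genes had it, where 51.5% of 15843 protein-coding genes did. The PARP1 match (chr1:226408171-226408247, gene on the minus strand, G runs on the opposite strand) spans positions -154 to -78 relative to the start, and the TOP1 match (chr20:41028609-41028639, gene strand) spans -213 to -183. Both were touched by a peak in all 3 lists. A motif with runs of only 2 G was present in all 8 genes, but also in 91.3% of protein-coding genes. No match means only that these letters were not in these 300 bases. In the matches shown, capitals mark the runs of the motif strand, so C runs at PARP1 and G runs at TOP1.
PARP1 loops to 12: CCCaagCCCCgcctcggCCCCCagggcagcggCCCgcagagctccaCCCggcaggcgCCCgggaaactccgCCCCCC
TOP1 loops to 12: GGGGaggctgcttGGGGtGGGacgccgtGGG

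The 8 genes differed in how their runs fell on the strands, as the plot of runs shows. The promoter of the inner NPM1 start had 12 G runs and 2 C runs, TOP1 10 and 2, and TARDBP 9 and 3. The outer NPM1 start had the opposite bias, with 4 G runs and 9 C runs. The reverse held for NCL, with 5 G runs and 10 C runs, and for DNMT1, with 6 and 10. YY1 had 10 and 13, CNBP 9 and 11, and PARP1 10 of each. Over all protein-coding promoters the medians were 7 G runs and 6 C runs. The larger of the counts was 9 to 13 at these promoters, at or above the median of 9 over all promoters (quartiles 6 and 12). Only YY1, with 13, lay above the upper quartile. GC content ran from 47.7% at the outer NPM1 start and 60.0% at TARDBP to 82.7% at YY1, where the median of all was 62.3% (quartiles 53.0 and 70.0%). Across all promoters a peak in all 3 lists was present at 29.5% of those with the canonical motif (95% Wilson interval 28.4 to 30.5%, counting error only) and at 19.8% of those without it (19.1 to 20.4%).

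**Figure D1:**
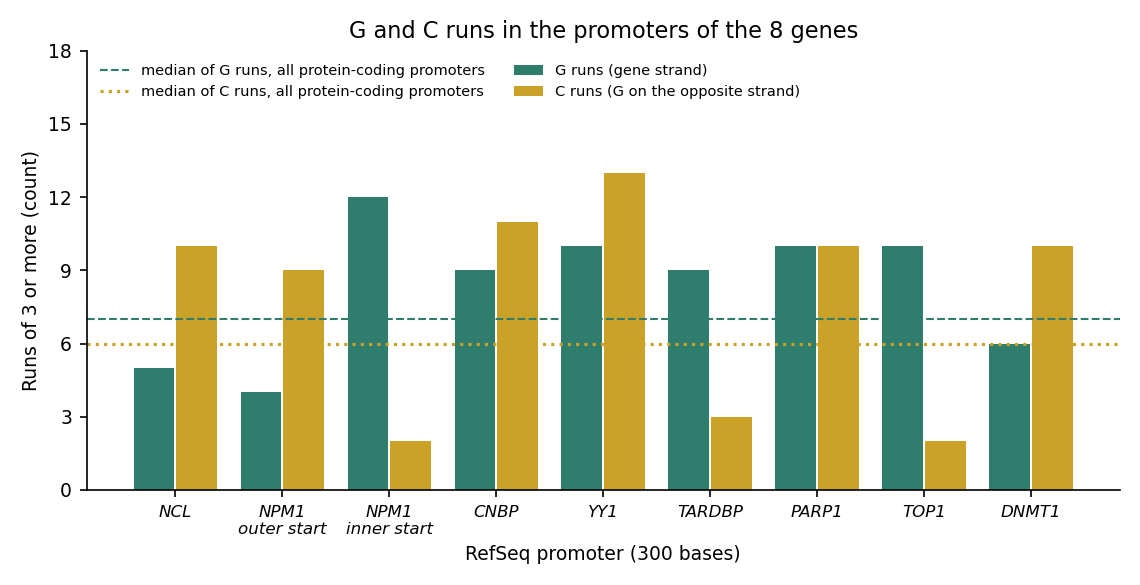
Number of runs of 3 or more G (green, gene strand) and of 3 or more C (yellow, G on the opposite strand) in each RefSeq promoter of 300 bases; lines mark the medians over all protein-coding promoters, 7 G runs and 6 C runs. The inner NPM1 start and TOP1 have 12 and 10 G runs with 2 C runs each, while NCL and DNMT1 have 10 C runs each.

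The level of signal in the windows is given as CPM, the reads in a window relative to all reads in windows of the same library, on the usual CPM scale. The mean ran from 0.701 times the protein-coding median at NPM1 to 5.41 times at PARP1. All windows are 400 bp long, but they are not placed alike. The YY1 window is centred at -846 bp of the start, and the NPM1 window on an outer start without a peak. The TARDBP window holds only the downstream ends of the TARDBP peaks. The background around the genes also differed, with 13.9 CPM at PARP1 and 10.8 CPM at NPM1. The order below is therefore that of the windows. PARP1 was highest, and TOP1, CNBP, TARDBP, YY1 and NPM1 followed. The median of the 6 windows was 55.5 CPM in BioRep3, 53.6 CPM in BioRep2 and 42.7 CPM in BioRep1. The medians of 13477 protein-coding windows were 25.3, 24.7 and 25.8 CPM in the same order, which makes a ratio of 2.01 ± 0.303 (SD, n = 3 biological replicates).

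PARP1 (ENSG00000143799.12, chr1:226407880-226408279, hg38) was among the strongest promoters of the series. It had 151, 134 and 153 CPM in BioRep3 libraries 1 to 3, 144, 121 and 124 CPM in BioRep2, and 133, 139.8 and 139.5 CPM in BioRep1. Every library was far above the other 5 windows, whose highest single value was 87.7 CPM. The mean was 138 ± 8.29 CPM (SD, n = 3), above 99.8% of protein-coding windows and 5.41 times their median. The reads behind it numbered 759, between 52 and 102 per library. Peaks of 560, 365 and 383 bp spanned the start in BioRep3, BioRep2 and BioRep1, and BioRep2 had a further peak of 170 bp inside the gene. The background around PARP1 was raised as well: 166 windows without a peak or a protein-coding name within 5 Mb averaged 13.9 ± 0.402 CPM, against 8.61 ± 0.452 CPM over 39308 such autosomal windows. PARP1 stood at 9.92 ± 0.801 times its surroundings, TOP1 at 8.15 ± 1.51 times and CNBP at 7.11 ± 1.45 times, so the order of the 3 was the same, and the SDs of neighbours in it overlap. The part of this raised background in the PARP1 level was not tested.

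TOP1 (ENSG00000198900.5, chr20:41028619-41029018) came next. It had 70.1, 87.6 and 85.9 CPM in BioRep3, 83.2, 83.9 and 87.7 CPM in BioRep2, and 70.4, 72.6 and 56.2 CPM in BioRep1. The BioRep1 libraries lay at the low end, overlapping those of BioRep3. The mean was 77.5 ± 9.82 CPM (n = 3), above 92.9% of protein-coding windows. Its peaks of 338, 401 and 263 bp lay almost wholly upstream: the bases in all 3 ran from -306 to -44 bp of the start.

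CNBP (ENSG00000169714.16, chr3:129183723-129184122) had 82.6, 66.0 and 69.1 CPM in BioRep3, 86.7, 55.5 and 58.0 CPM in BioRep2, and 48.5, 61.8 and 43.5 CPM in BioRep1. The mean was 63.5 ± 11.004 CPM (n = 3), above 86.4% of protein-coding windows. The variance between its libraries was 1.98 times the value that counting gives, where the median protein-coding window had 0.903 times. Its peaks were uneven too: 1 of 353 bp in BioRep3, 2 of 168 and 105 bp in BioRep2, and 1 of 73 bp in BioRep1, which left 33 bp in common. The 5′ end of the long non-coding RNA gene LOC105374101 lies 178 bp upstream on the opposite strand, inside the BioRep3 peak and the 105 bp BioRep2 peak.

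By the window used, TARDBP sat at the level where calls divide. Its window (ENSG00000277726.4, chr1:11012463-11012862) had 43.6, 33.0 and 38.7 CPM in BioRep3, 36.4, 42.5 and 42.3 CPM in BioRep2, and 26.6, 43.0 and 32.6 CPM in BioRep1. The groups overlapped, and BioRep1, without a peak, held both the lowest value and a value near the top. The mean was 37.7 ± 3.25 CPM (n = 3), above 63.8% of protein-coding windows. Of 1153 other protein-coding windows within 10% of this level, 10.6% had a peak in all 3 lists, 35.9% in 2, 37.3% in 1 and 16.2% in none. The peaks of 214 bp (BioRep3) and 228 bp (BioRep2) lay between -385 and -96 bp of the start. The window therefore held only their downstream ends, and its level is mostly that of bases beside the peaks. A second window on the same strand, ENSG00000120948.16, is centred at -310 bp and shares 82 bp with the first. This upstream window spans the whole BioRep3 peak and most of the BioRep2 peak. It had 47.7 ± 5.91 CPM (n = 3), above 74.1% of protein-coding windows, and a peak in the same 2 lists. The files and the reference table do not pair Ensembl IDs with names, so the TARDBP window is the nearer by position, and the other may be the one annotated for the gene.

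**Figure D2:**
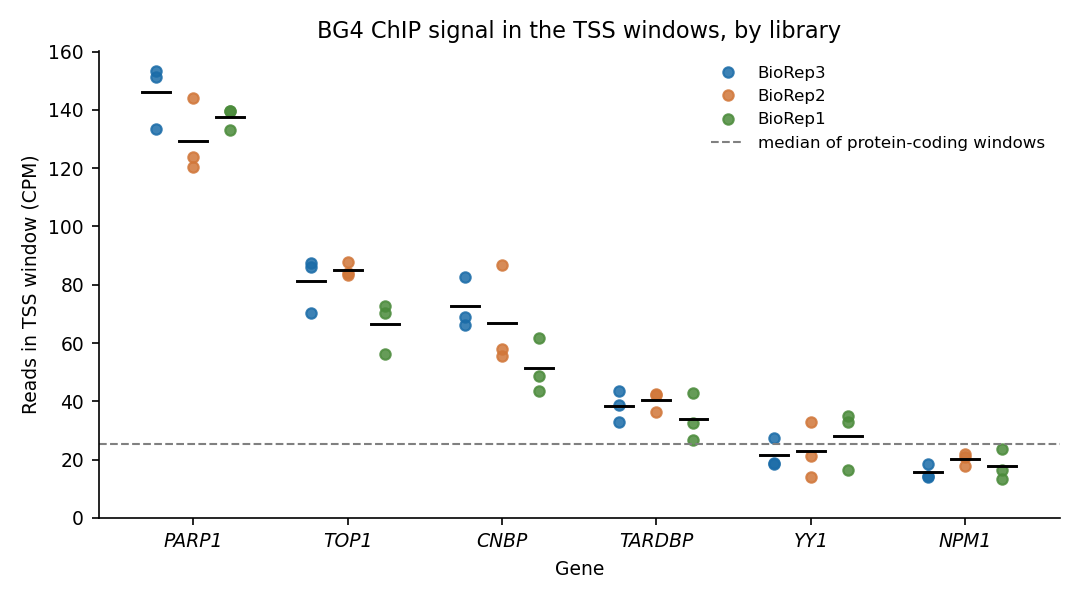
CPM in the TSS window of each gene for the 9 libraries (points), grouped by biological replicate, with black bars at the mean of 3 technical libraries; the dashed line is the median of all protein-coding windows. PARP1 lies between 121 and 153 CPM, apart from the other genes, while the YY1 libraries lie on both sides of the dashed line and those of NPM1 below it.

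The windows of YY1 and NPM1 were low although both genes had promoter peaks in all 3 lists, since the peaks lay outside the windows. The YY1 window (ENSG00000100811.12, chr14:100238099-100238498) is centred at -846 bp of the RefSeq start. It had 18.7, 27.3 and 18.5 CPM in BioRep3, 33.0, 21.3 and 14.1 CPM in BioRep2, and 32.9, 34.9 and 16.3 CPM in BioRep1, with a mean of 24.1 ± 3.47 CPM (n = 3). The values overlapped between groups and lay around the protein-coding median of 25.4 CPM. The YY1 peaks were among the longest of their lists, 534 bp in BioRep3, 452 bp in BioRep2 and 414 bp in BioRep1, longer than 96.5%, 95.01% and 95.7% of the peaks there. Their common bases, chr14:100238594-100238981, run from -550 to -163 bp of the start.

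YY1 has a divergent non-coding neighbour, YY1-DT, whose 5′ end is 523 bp upstream of the YY1 start, inside this stretch. The window named for YY1-DT (ENSG00000258982.1, chr14:100238356-100238755) had 84.0 ± 11.1 CPM (n = 3), with 69.9 to 103 CPM over the 9 libraries and a peak in all 3 lists. It shares 143 bp with the YY1 window and was above 94.9% of protein-coding windows. YY1 also had peaks inside the gene, from 798 to 1491 bp downstream of the start, 2 in BioRep3, 3 in BioRep2 and 3 in BioRep1. Here 73 bp (chr14:100240161-100240233) and 20 bp were common to the lists. Of the 8 genes YY1 was alone in having peaks that lay wholly beyond 500 bp from each RefSeq start.

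NPM1 has 2 RefSeq starts, 733 bp apart, and the signal lay at the inner one. The window (ENSG00000181163.13, chr5:171386917-171387316) is centred on the outer start. It had 14.03, 14.4 and 18.5 CPM in BioRep3, 20.8, 17.7 and 21.9 CPM in BioRep2, and 23.5, 13.4 and 16.3 CPM in BioRep1. No library reached the protein-coding median, and the mean was 17.8 ± 2.26 CPM (n = 3). Peaks of 444 bp in BioRep3, 426 bp in BioRep2 and 328 bp in BioRep1 covered the bases from -333 to -6 bp of the inner start in all 3 lists (chr5:171387516-171387843). The outer promoter had no peak in any list and a GC content of 47.7%, against 66.0% for the inner promoter. No TSS window covers the inner start, so its read level is not given here.

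NCL and DNMT1 are known from their peaks alone. NCL had a single peak in each list, of 382 bp in BioRep3, 391 bp in BioRep2 and 294 bp in BioRep1. The common bases, chr2:231464493-231464779, ran from -295 to -9 bp of the start. The 3 small nucleolar RNA genes hosted in NCL carried no peak: the windows of SNORA75, SNORD20 and SNORD82 had 10.8 ± 3.36, 10.1 ± 2.44 and 8.12 ± 0.310 CPM (n = 3), near the 8.36 ± 0.260 CPM of 142 peak-free windows within 5 Mb. DNMT1 had peaks of 296 bp in BioRep3, 188 bp in BioRep2 and 127 bp in BioRep1, and BioRep2 had a fragment of 6 bp. The common bases, chr19:10194957-10195083, ran from -130 to -4 bp of the start.

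**Figure D3:**
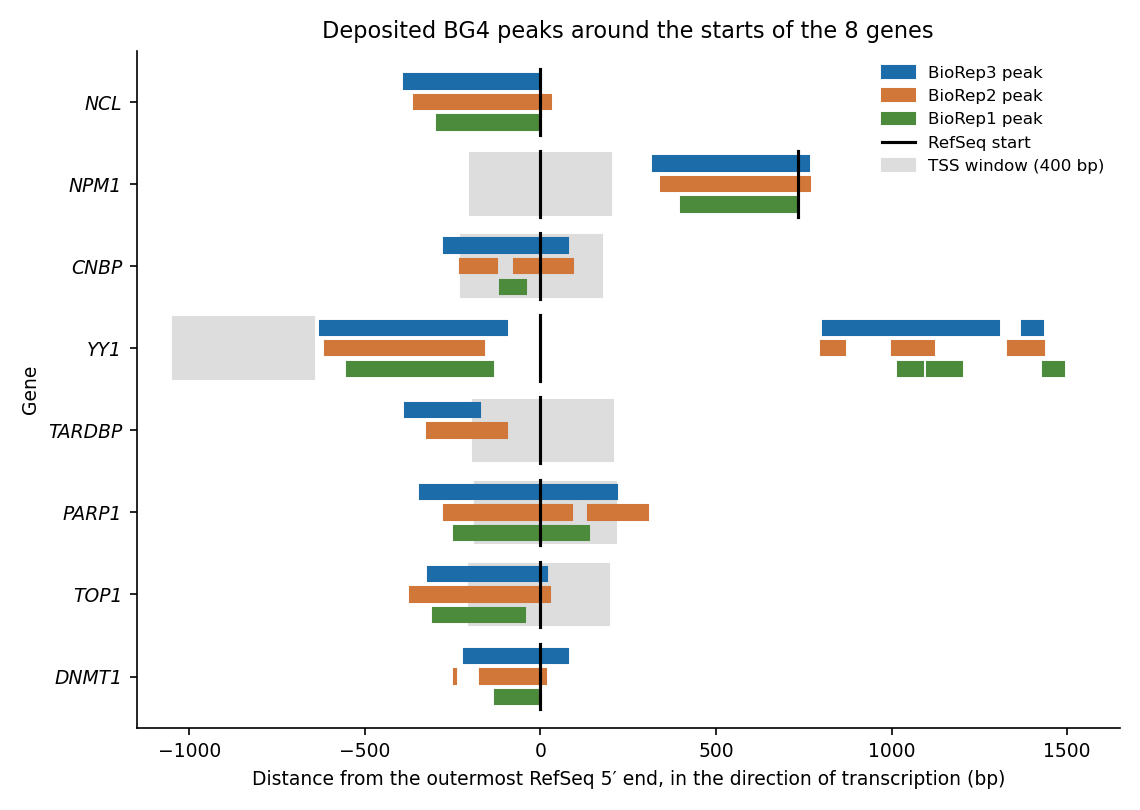
Deposited peaks of each biological replicate (coloured bars) against the distance in bp from the outermost RefSeq 5′ end, negative upstream; black lines are RefSeq starts and grey boxes the 400 bp TSS windows. Each gene but TARDBP, which has none in BioRep1, has a peak in all 3 lists that begins upstream of a start, the inner one at NPM1; YY1 also has peaks inside the gene.

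The peaks lay near the starts, apart from those inside YY1. Within the regions of the 8 genes, 5 kb on each side included, there were 34 peaks, 10 in BioRep3, 14 in BioRep2 and 10 in BioRep1. The main stretch of common bases had its midpoint upstream of the nearest start in each gene: -58 bp at CNBP, -67 bp at DNMT1, -77.5 bp at PARP1, -152 bp at NCL, -169.5 bp at NPM1, -175 bp at TOP1, -247.5 bp at TARDBP (BioRep3 and BioRep2) and -356.5 bp at YY1. Over 5191 stretches common to the lists within 1 kb of a protein-coding start, 83.0% had it upstream, with a median of -81 bp and quartiles at -141.5 and -24.2 bp. These main stretches were 388 bp long at YY1, 336 bp at PARP1, 328 bp at NPM1, 287 bp at NCL, 263 bp at TOP1, 127 bp at DNMT1 and 33 bp at CNBP, and 152 bp at TARDBP. PARP1 had a further 3 bp in common, at 136 bp downstream of its start, beside the 73 and 20 bp inside YY1. The quartiles of length over the 5191 stretches were 62 and 215 bp, but these include the short ones of each gene.

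Most other TSS windows within these regions held no peak. They numbered 13, and 11 had no peak in any list, with a mean of 7.28 to 21.5 CPM and a median of 10.1 CPM. The highest of these, ENSG00000270287.1, centred at -4042 bp of the PARP1 start, had 21.5 ± 2.91 CPM (n = 3), above the 13.9 CPM of its surroundings. The next, ENSG00000233538.1 in the NCL region, had 18.5 ± 1.67 CPM, against 8.36 CPM around it. The 2 windows with peaks were those of YY1-DT and the upstream TARDBP window. The windows of the microRNA genes MIR3912, beside NPM1, and MIR6764, inside YY1, had 12.7 ± 1.32 and 10.1 ± 1.03 CPM (n = 3), and that of the pseudogene RNU2-52P, beside TOP1, had 8.89 ± 0.809 CPM.

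**Figure D4:**
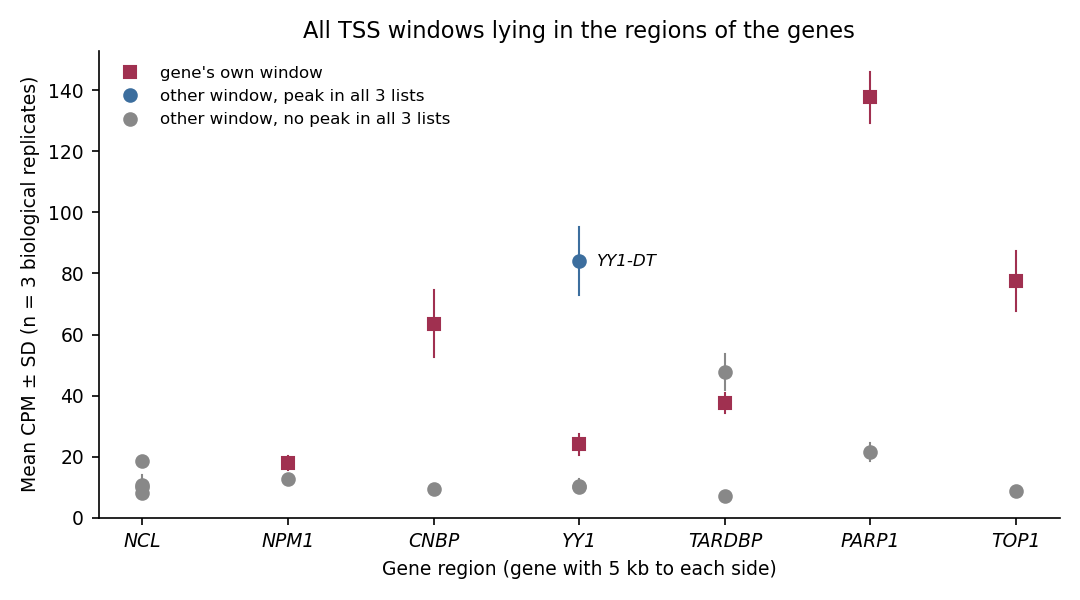
Mean CPM with SD over 3 biological replicates (vertical bars) of each TSS window within the gene regions; red squares are the windows of the genes, blue a neighbour with a peak in all 3 lists, grey the remaining windows. DNMT1 had no window in its region. The YY1-DT window, at 84.0 CPM, stands above that of YY1, at 24.1 CPM.

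Neighbours in the order of levels differed to unequal degree. PARP1 exceeded TOP1 by 60.1 ± 13.9 CPM (SD of the difference, n = 3), and their 9 libraries did not overlap. TOP1 exceeded CNBP by 13.99 ± 4.89 CPM, higher in 3 of 3 replicates and 7 of 9 libraries, while the ranges of their replicate means overlap. CNBP exceeded TARDBP by 25.9 ± 8.46 CPM in 9 of 9 libraries, and TARDBP exceeded YY1 by 13.5 ± 6.51 CPM in 8 of 9. YY1 exceeded NPM1 by 6.26 ± 3.86 CPM, in 6 of 9 libraries. For the last 3 pairs the replicate means did not overlap but the single libraries did. These differences are given without a test, and the windows of YY1 and NPM1 lay off the peaks of those genes. The TARDBP window held only the downstream ends of the TARDBP peaks.

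**Figure D5:**
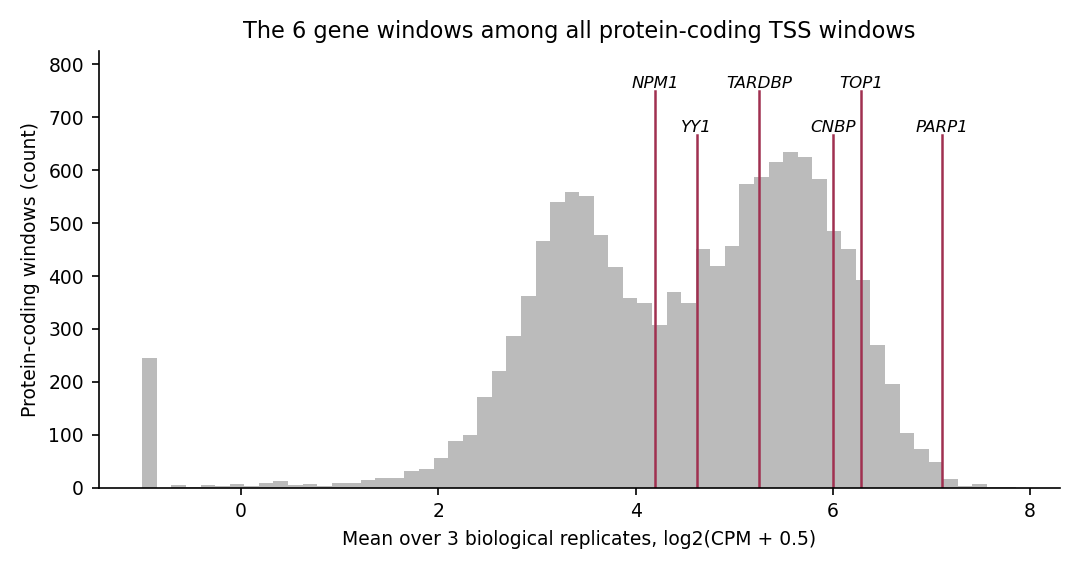
Histogram of the mean level of 13477 protein-coding TSS windows, as log2(CPM + 0.5), with red lines at the 6 gene windows. PARP1 lies in the upper tail, TOP1, CNBP and TARDBP in the upper hump, and YY1 and NPM1 between the humps.

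Windows with more reads more often held a peak. Of the 6 genes with a window, PARP1, TOP1 and CNBP had a peak in it in all 3 lists, 3 of 6 where 25.5% of 13594 protein-coding genes with a window did. Windows within 10% of the PARP1 level had a peak in all 3 lists in 100% of 66 cases. For TOP1 the share was 97.9% of 768, for CNBP 88.0% of 976, for YY1 0.258% of 775 and for NPM1 0% of 610. No list had a peak in 90.1% of the windows at the YY1 level and 98.9% of those at the NPM1 level. The calls in the windows of these 5 genes were those of most windows at the same level. Peaks and counts come from the same libraries, so this match is not independent. At YY1 and NPM1 it concerns windows that lie off the peaks of the gene. By their values over the 9 libraries, the protein-coding windows most like PARP1 (smallest Euclidean distance in log2 CPM among 13476) were those of IGSF8, with 137 ± 7.41 CPM, and DOP1B, with 139.5 ± 4.39 CPM. The windows most like NPM1 were those of CNOT6L, with 18.4 ± 2.77 CPM, and MYOF, with 18.1 ± 0.450 CPM.

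None of the 6 windows differed between the biological replicates past the threshold. In edgeR's quasi-likelihood test over the 3 replicates (Benjamini-Hochberg over 17499 windows), 0 of 6 had an adjusted p at or below 0.05. Of all windows tested, 0% passed here and in each contrast of 2 replicates, while 1379 (7.88%) had an unadjusted p under 0.05 and DESeq2 called 0. The 3 libraries of a replicate are labelled technical, so these p-values set differences between replicates against the technical spread alone. In simulated data of this size, changes were placed in BioRep3 at randomly drawn windows, with 1 common spread for all windows. The test called 24% of windows changed 1.5-fold, 72% of those changed 2-fold and all of those changed 3-fold, with 12 false calls. Changes of 2-fold or less could thus be missed among windows of all depths, which sets no limit for a single gene. For BioRep3 against BioRep1 the SE on the log2 scale was 0.11 at PARP1 and 0.37 at NPM1. The lowest adjusted p over the 3 replicates belonged to CNBP (adjusted p = 0.634, edgeR). CNBP was 0.48 higher in BioRep3 than in BioRep1 on the log2 scale (SE 0.18, adjusted p = 0.455 for that contrast, edgeR). TOP1 was 0.34 higher in BioRep2 than in BioRep1 (SE 0.16, adjusted p = 0.667, edgeR). PARP1 differed by 0.03 between BioRep3 and BioRep1 (SE 0.11, adjusted p = 0.976, edgeR).

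Other genes of proteins known to bind quadruplexes, and relatives of the 8 genes, give the setting. In a list of 32 further binding proteins without the helicases, 23 had a window, 14 of these (60.9%) had a peak in all 3 lists, and the median was 64.1 CPM, against 50.6 CPM for the 6 genes and 25.4 CPM for all protein-coding windows. Examples with a peak in the window in all lists were MAZ, a factor of guanine-rich promoters, with 160 ± 12.1 CPM (n = 3) and HNRNPU, a nuclear RNA-binding protein, with 109.9 ± 12.7 CPM. SP1, a GC-box factor, with 68.1 ± 7.55 CPM and SRSF1, a splicing factor, with 53.1 ± 3.20 CPM had a peak in the window in 2 lists. Over all protein-coding genes with a window, 25.5% had a peak in it in all 3 lists. Genes listed as G-quadruplex helicases were lower than the further binding proteins, with 4 of 12 windows (33.3%) and a median of 35.5 CPM. Among them BLM had 80.6 ± 4.67 CPM and DHX9 61.8 ± 12.3 CPM, with peaks in all lists, and DDX3X had 45.4 ± 6.14 CPM and BRIP1 44.4 ± 2.14 CPM, with window peaks in 2.

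Relatives of the 8 genes by family had a peak in all 3 lists in 3 of 11 windows (27.3%), with a median of 38.5 CPM. That share is near the 25.5% of all protein-coding genes with a window. TOP3A, a topoisomerase of decatenation, had 80.2 ± 3.34 CPM and PARP3 75.4 ± 13.6 CPM, with peaks in all lists. TOP2B had 48.3 ± 2.62 CPM and the de novo methyltransferase DNMT3B 40.2 ± 0.833 CPM, with window peaks in 2. Counted by promoter, 18 of 25 further binding proteins (72.0%), 5 of 14 helicases (35.7%) and 3 of 11 relatives (27.3%) had a peak in all 3 lists, beside 7 of 8 (87.5%) for the genes described here and 28.4% of all. These differences between lists were not tested.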

How the data were processed

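The 9 ChIP libraries and 3 peak lists were used. Per the labels' file names, the authors counted reads in windows of 400 bp around GENCODE release 28 starts on hg38; the deposited counts are raw. The deposited peak lists hold positions alone, with 1 list for each biological replicate. Cutadapt, BWA, Picard, MACS2 and bedtools are listed in the submitters' processing notes, with no version. How peaks were thresholded, and whether marked duplicates were counted, is not given in the sources used here; leaving duplicates out would cap dense windows.

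Samples were grouped by title. The 8 genes and the gene lists were chosen with earlier results of these data known. The named genes were every member, from each other list the 2 highest windows with and the 2 highest without a peak in all lists, the 2 nearest patterns of the highest and lowest gene, and the genes within the regions. The windows carry Ensembl IDs; names come from RefSeq (GRCh38.p14) by position and strand, the strand being that of the promoter table, which held 15843 of 20056 protein-coding genes and all 8 members. Genes without an entry there were named in the regions by a start within 200 bp of the window centre.

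CPM is scaled to reads in windows, averaged over technical libraries and given as mean ± SD over 3 biological replicates. A peak counts with 1 bp of overlap. The test was edgeR 4.0.16 (TMM, filterByExpr, robust quasi-likelihood fit, Benjamini-Hochberg at 0.05) in R 4.3.3, tested on simulated data, with DESeq2 1.42.0 as an alternative; other values came from Python 3.11.15, numpy 2.4.6, pandas 2.3.3 and scipy 1.17.1. Chosen after seeing the data were the promoter count, the background within 5 Mb, the windows within 10% of a level and the distances of common bases.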

Additional observations from a re-analysis of the deposited data

How the results depend on the processing

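The 6 windows had 0 calls between biological replicates under each of the 14 alternatives run, including DESeq2's size factors and its test, no filter, no mitochondrial windows and each library left out. Over all windows, 25 of 56196 were called without the filter on low counts, none of them a gene described here, and 0 to 1 when a library was left out. With the technical number as a replicate block the count was 0 for the genes and 0 over all windows. Same-numbered libraries deviated together with correlations of -0.0157 to 0.0269, and differently numbered ones with -0.0214 to 0.0238. The spread within windows is near counting error, so these values cannot tell whether same-numbered libraries shared a step. The count of windows with a peak in all 3 lists went to 5 of 6 when peaks were sought within 1 kb of the window centre, which takes in YY1 and NPM1; the other alternatives gave 2 to 4. The count of promoters stayed between 6 and 8 of 8. The median of the windows was 63.5 CPM when windows were named within 200 bp, since that leaves out YY1, and 48.1 to 54.6 CPM otherwise. The level of each gene moved by less than its SD under the 5 alternatives run for it. For those that leave out a biological replicate this was fixed in advance. Dropping 1 of 3 values cannot move their mean by a full SD. The motif count was 3 with loops of up to 12 bases and 8 with runs of 2 G. Reads per window and library, from 5 at NPM1 to 102 at PARP1, limit what can be told apart.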
